A study of Mus musculus with 12 samples.

Results

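Chromatin accessibility was compared between all fibril-exposed cortical neuron cultures and their vehicle controls, to ask which accessible regions differ from vehicle after fibrils whether or not a second treatment was given. The members were 9 fibril-exposed ATAC-seq libraries (3 PFF, 3 PFF+MLi-2 and 3 PFF+Rab5 ASO) and 3 PBS libraries, which together are all 12 libraries of the series, chosen by their titles. ATAC-seq uses the transposase Tn5 to cut and tag open DNA, so that sequenced fragments pile up where chromatin is accessible.

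The neurons came from the cortex of wild-type C57BL/6 mouse embryos at day 18 of gestation and were kept as primary cultures. PBS cultures received the vehicle. PFF cultures received pre-formed fibrils of alpha-synuclein for 7 days. PFF+MLi-2 cultures received the same fibrils and, for the last 5 days, MLi-2, which blocks the kinase activity of LRRK2, and PFF+Rab5 ASO cultures received the fibrils and, for the last 3 days, antisense oligonucleotides against Rab5. No culture received MLi-2 or the oligonucleotides without fibrils, and no group received a control oligonucleotide, so an effect of either agent by itself cannot be told apart from its effect on fibril-exposed cells. For both doubly treated groups, the description field mentions PBS although title, treatment and design all give PFF. The titles were followed. All libraries carry the same batch label, and the study counted each pregnancy as 1 biological replicate, with its cultures assigned to the groups at random. The labels do not say which libraries share a pregnancy.

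Alpha-synuclein is a presynaptic protein whose fibrils are taken up by neurons through the endolysosomal system, where they can seed the aggregation of the cell's own alpha-synuclein. LRRK2 is a kinase of Rab GTPases, and Rab5 directs traffic to early endosomes. Stress on lysosomes can release the transcription factors TFEB and TFE3 to the nucleus, where they bind E-boxes of the sequence CACGTG, and changes of this kind can be read as opening or closing of chromatin.

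The deposited data were peak lists, one per library, in which each peak has a fold enrichment of its summit over the local background. Peaks of the 12 lists that overlapped by at least 1 bp were merged into 263785 regions. A region was called gained when all 9 fibril-exposed libraries and 0 of 3 PBS libraries had a peak in it, and lost when 0 of 9 and 3 of 3 had one. By this rule 32 regions were gained and 67 were lost, 99 in all.

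The sequences of 10 regions are shown, namely the first 2 gained regions and the first lost one, the 5 members with CACGTG within 100 bp of the summit, and the gained and lost pair upstream of Cntln. All are on the plus strand of GRCm38, 5′ to 3′, and span the whole merged region. Capitals mark matches on either strand to the 15 searched motifs, which are the E-box CACGTG and its longer form GTCACGTG, the AP-1 site TGANTCA, the CRE site TGACGTCA, the ETS site CCGGAAGT, the GC box GGGCGG, the NRF1 site GCGCATGCG, the CTCF core AGGGGGC, the neural E-boxes CAGATG for one class and CAGCTG for another, the homeodomain site TAATTA, the forkhead site GTAAACA, the MEF2 site TAAAAATAG, the TEAD site GGAATG and the NFI site TTGGCA, and a sequence with no capitals held none of them.
Gained, intergenic near Rnft1, chr11:86457625-86457849: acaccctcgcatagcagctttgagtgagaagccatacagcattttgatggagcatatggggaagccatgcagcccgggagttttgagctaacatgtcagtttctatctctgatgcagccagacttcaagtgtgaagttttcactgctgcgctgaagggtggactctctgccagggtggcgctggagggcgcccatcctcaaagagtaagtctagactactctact
Gained, start of Gm11732, chr11:117425952-117426213: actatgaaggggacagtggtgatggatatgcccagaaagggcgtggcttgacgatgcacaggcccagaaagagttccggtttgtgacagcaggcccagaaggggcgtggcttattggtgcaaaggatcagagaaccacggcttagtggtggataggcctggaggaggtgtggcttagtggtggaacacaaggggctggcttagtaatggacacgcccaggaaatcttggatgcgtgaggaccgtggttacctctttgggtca
Gained, Pde3a intron, chr6:141282917-141283079: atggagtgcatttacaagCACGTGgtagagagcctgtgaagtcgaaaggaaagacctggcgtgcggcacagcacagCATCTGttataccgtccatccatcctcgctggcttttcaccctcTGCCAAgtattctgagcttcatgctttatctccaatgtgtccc
Gained, Apol7a promoter, chr15:77397432-77397623: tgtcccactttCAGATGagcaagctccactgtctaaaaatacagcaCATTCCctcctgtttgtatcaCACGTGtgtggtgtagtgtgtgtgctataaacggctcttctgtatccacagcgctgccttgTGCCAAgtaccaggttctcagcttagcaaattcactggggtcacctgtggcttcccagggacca
Gained, Gm13832 intron, chr5:115404384-115404632: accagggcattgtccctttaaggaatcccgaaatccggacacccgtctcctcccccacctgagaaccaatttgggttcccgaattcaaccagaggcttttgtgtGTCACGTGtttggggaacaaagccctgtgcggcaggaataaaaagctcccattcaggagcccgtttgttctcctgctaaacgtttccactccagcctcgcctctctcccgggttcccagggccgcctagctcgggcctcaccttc
Gained, upstream of Cntln, chr4:84860810-84861045: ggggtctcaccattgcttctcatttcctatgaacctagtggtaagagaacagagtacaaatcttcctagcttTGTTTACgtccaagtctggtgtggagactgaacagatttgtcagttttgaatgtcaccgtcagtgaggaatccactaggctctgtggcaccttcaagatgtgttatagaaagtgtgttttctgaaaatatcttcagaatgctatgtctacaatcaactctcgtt
Lost, upstream of Cntln, chr4:84850396-84850535: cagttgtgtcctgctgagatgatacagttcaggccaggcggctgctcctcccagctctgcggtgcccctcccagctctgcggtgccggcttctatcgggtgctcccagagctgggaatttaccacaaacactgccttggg
Lost, upstream of Robo2, chr16:74500820-74501068: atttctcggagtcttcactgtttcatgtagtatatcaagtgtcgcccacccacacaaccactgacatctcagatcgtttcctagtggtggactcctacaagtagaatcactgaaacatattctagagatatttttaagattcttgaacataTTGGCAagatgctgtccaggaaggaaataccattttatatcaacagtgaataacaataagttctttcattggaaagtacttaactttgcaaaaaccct
Lost, intergenic near D16Ertd472e, chr16:78730704-78730819: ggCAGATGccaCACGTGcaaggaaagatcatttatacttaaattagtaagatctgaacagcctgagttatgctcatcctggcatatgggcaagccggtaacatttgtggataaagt
Lost, Usp15 intron, chr10:123183394-123183502: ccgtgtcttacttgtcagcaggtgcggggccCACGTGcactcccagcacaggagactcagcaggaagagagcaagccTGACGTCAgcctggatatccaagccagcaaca

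The gained and lost regions were rare among all regions. The 32 gained regions were 0.0121% of the 263785 regions, and the 67 lost regions were 0.0254%. Of the 8194 regions with a peak in exactly 9 libraries of any kind, the 32 gained ones made up 0.391%, whereas 3291 lacked the peak in 3 fibril-exposed libraries, 3801 in 2 fibril-exposed and 1 PBS library, and 1070 in 1 fibril-exposed and 2 PBS libraries. Of the 17884 regions with a peak in exactly 3 libraries, the 67 lost ones made up 0.375%. The 3 PBS libraries are 1 of 220 possible choices of 3 libraries, and neither share exceeds that of an average choice. A Fisher's exact test per region (two-sided) could not go below p = 0.00455, the value of every gained and lost region, and after Benjamini-Hochberg adjustment over all regions the smallest p was 1. Without adjustment, 2936 regions (1.11%) had p under 0.05. No single gained or lost region therefore passed a test, and the calls below are descriptions.

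**Figure D1:**
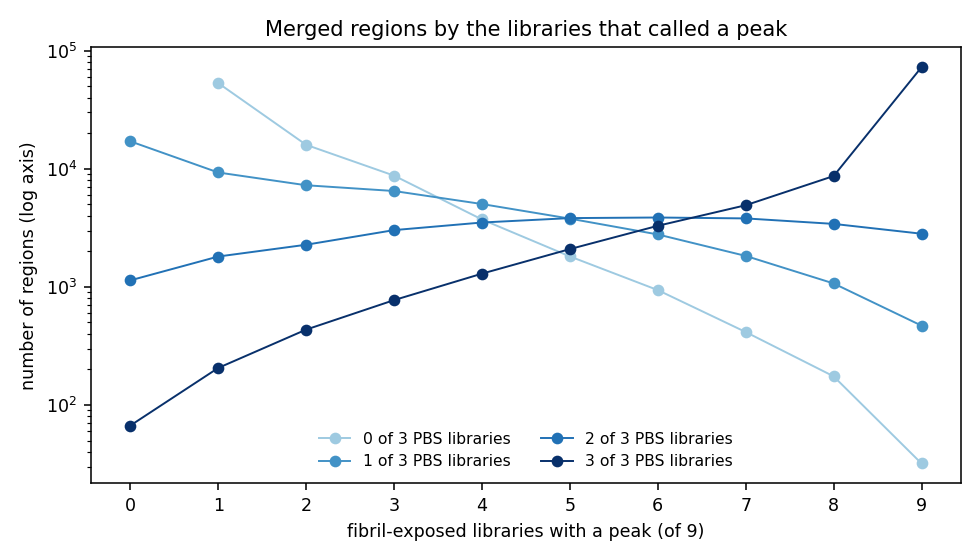
Number of merged regions (log axis) by how many of the 9 fibril-exposed libraries called a peak, with a line for each number of PBS libraries that did. The 32 gained regions are the lowest point at 9 (0 of 3 PBS libraries) and the 67 lost regions the lowest point at 0 (3 of 3).

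Just outside the rule, 175 regions had a peak in 8 of 9 fibril-exposed and 0 of 3 PBS libraries, and 470 had one in 9 of 9 and 1 of 3. The library that lacked the peak in the 8 of 9 case was PFF+MLi-2 replicate 2 at 42 regions, PFF+MLi-2 replicate 1 at 41 and PFF+MLi-2 replicate 3 at 31, against 3 to 20 regions for each of the other 6 libraries. The PFF+MLi-2 libraries held 145497 to 147991 peaks, fewer than any other fibril-exposed library. In the 9 of 9 and 1 of 3 case the single PBS library was replicate 1 at 340 of the 470 regions, and this library had the most PBS peaks, 180989 against 137417 and 152173. On the other side, 206 regions had a peak in 1 of 9 and 3 of 3, and 1136 in 0 of 9 and 2 of 3. Each single comparison with the same 3 PBS libraries gave more regions than the joint rule: 2385 gained and 879 lost with PFF, 453 and 1160 with PFF+MLi-2, and 5887 and 2255 with PFF+Rab5 ASO (3 of 3 against 0 of 3 in each).

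The number of fragments over a summit, recovered as whole numbers from the deposited fold and p-value, had a median of 14 (range 8 to 30) over the gained peaks and of 11 (9 to 23) over the lost peaks, against 25 in regions common to all 12 libraries. Regions called in the same number of libraries were alike in height, with a median of 14 fragments for those with exactly 9 peaks and of 12 for those with exactly 3. The weakest peak that any library called had 8 or 9 fragments, so a library without a call may still have held a few fragments there. Within-list percentiles of fold enrichment (0 for the lowest peak of a library and 100 for the highest) averaged 6.37 to 57.7 over the fibril-exposed libraries in the gained regions, with a median of 38.9, and 2.13 to 49.99 over the PBS libraries in the lost regions, with a median of 25.7. The median was 39.3 for regions with exactly 9 peaks, 28.1 for those with exactly 3 and 73.7 for common regions. Among the groups, the median percentile of the gained regions was 39.6 (PFF), 30.3 (PFF+MLi-2) and 45.3 (PFF+Rab5 ASO), and the highest group mean was in PFF+Rab5 ASO at 16 regions, in PFF at 14 and in PFF+MLi-2 at 2.

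The fibril-exposed peaks of a gained region often covered only part of it. Gained regions had a median width of 204.5 bp (104 to 337 bp) and lost regions of 126 bp (75 to 253 bp), and a region merged from 9 lists can be wider than one merged from 3. At 2 gained regions, in a Col28a1 exon and near Phf21b, the peaks of all 9 libraries covered at least 50% of the region. When a peak had to cover 50% to count, 42 regions were gained, of which only these 2 were among the 32. With 200 bp windows placed on merged summits instead, 37 were gained and 26 of the 32 overlapped them, and 79 were lost, overlapping 60 of the 67.

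By mean percentile the first gained region was intergenic, chr11:86457625-86457849, 26808 bp upstream of a start site of Rnft1, an E3 ubiquitin ligase of the endoplasmic reticulum. Its summit held 11 to 19 fragments in the 9 fibril-exposed libraries (median 16), at percentiles of 28.3 to 78.8 (median 60.7). The lowest was PFF+Rab5 ASO replicate 2, and the PFF group stood highest with a mean of 67.2 against means of 55.2 (PFF+MLi-2) and 50.8 (PFF+Rab5 ASO). The next region, chr11:117425952-117426213, overlapped the start site of the transcript Gm11732. It held 12 to 22 fragments (median 19), and all 3 PFF libraries, at 21 or 22, lay above all 6 treated libraries, at 12 to 20. At chr5:126273336-126273520, which is 650848 bp from the nearest coding start site (Tmem132b), the 9 libraries held 12 to 23 fragments (median 15).

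Of the other leading gained regions, 3 lay in introns. Pde3a encodes a cyclic nucleotide phosphodiesterase, and its intronic region chr6:141282917-141283079 held 10 to 22 fragments (median 16). PFF+Rab5 ASO gave high values there (19 to 22) and PFF+MLi-2 low ones (11 or 12). Prnp encodes the prion protein, a glycoprotein of the neuronal surface, and the region chr2:131932617-131932819 in an intron of Prnp and of the overlapping locus Prn held 13 to 26 fragments (median 16), the highest value in PFF+Rab5 ASO replicate 1. F13a1 encodes the catalytic subunit of coagulation factor XIII, and its intronic region chr13:36888646-36888837 held 10 to 20 fragments (median 13), with values at 10 in both PFF and PFF+Rab5 ASO.

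The Col28a1 region, chr6:8176277-8176388 in an exon of a collagen gene, varied least of the 10 leading regions, with 11 to 16 fragments (median 14) and a percentile of 49.3 ± 11.4 (SD, n = 9). The region upstream of Sema6d, which encodes a semaphorin that guides axons, lay 378691 bp from the start site at chr2:123711015-123711278 and held 10 to 16 fragments (median 14). Apol7a belongs to the apolipoprotein L family, and chr15:77397432-77397623, 498 bp upstream of its start site, held 11 to 20 fragments (median 16).

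A gained and a lost region lay at the same locus. Cntln encodes centlein, a protein of the centrosome. The gained region chr4:84860810-84861045, 23264 bp upstream of the Cntln start site, held 11 to 17 fragments (median 14) in the fibril-exposed libraries, and the lost region chr4:84850396-84850535, 33774 bp upstream of it and 10274 bp from the gained region, held 10, 12 and 14 fragments in PBS replicates 1, 2 and 3. The other neighbouring members were 2 lost regions 18044 bp apart on chromosome 5, chr5:51899999-51900138 with 10 fragments and chr5:51918183-51918310 with 11 fragments in each PBS library. The nearer of these to a coding gene lay 239493 bp from a start site of Dhx15. No gene had more than 1 gained or more than 1 lost region inside it or within 1 kb, and the gained regions touched 19 genes and the lost regions 40.

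Of the 32 gained regions, 5 were at promoters, within 1 kb of a start site. Besides Gm11732 and Apol7a they were at Erfe (erythroferrone, a hormone that controls iron), at Sat1, the rate-limiting acetyltransferase of polyamine breakdown, and at the transcript Gm46560. The Sat1 region, chrX:155215898-155216038, held 11 to 15 fragments (median 13) and varied little between libraries, at a percentile of 25.9 ± 8.28 (SD, n = 9). The Erfe region, chr1:91366284-91366504, held 12 to 19 fragments (median 17) and was lower in PFF+Rab5 ASO, with a mean percentile of 9.78 against 38.4 in PFF and 35.8 in PFF+MLi-2. Further gained regions lay in introns of Sash1, Lnx1, Adamts17, Myo1h and Cadps. The last of these genes encodes a factor for the release of dense-core vesicles, and its region chr14:12450917-12451048 held 10 to 17 fragments (median 12).

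Lost regions were led by chr16:74500820-74501068, 88995 bp upstream of Robo2, a receptor of the axon guidance cue Slit. It held 17, 10 and 15 fragments in PBS replicates 1, 2 and 3, at percentiles of 69.2, 17.9 and 62.8, and replicate 2 was the lowest. Intergenic regions near Lsamp (16, 11 and 12 fragments) and D16Ertd472e (15, 11 and 12) followed. The region of lowest spread among the 10 leading lost ones was at a promoter inside Phlpp1, which encodes a phosphatase of the kinase Akt. There chr1:106317882-106318019 lay 644 bp downstream of a start site and held 12, 13 and 12 fragments. The other leading lost regions, near Sox9, Slc30a5, Slco5a1 and Xpnpep1 and in an intron of Spink13, held 10 to 15 fragments in each PBS library.

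**Figure D2:**
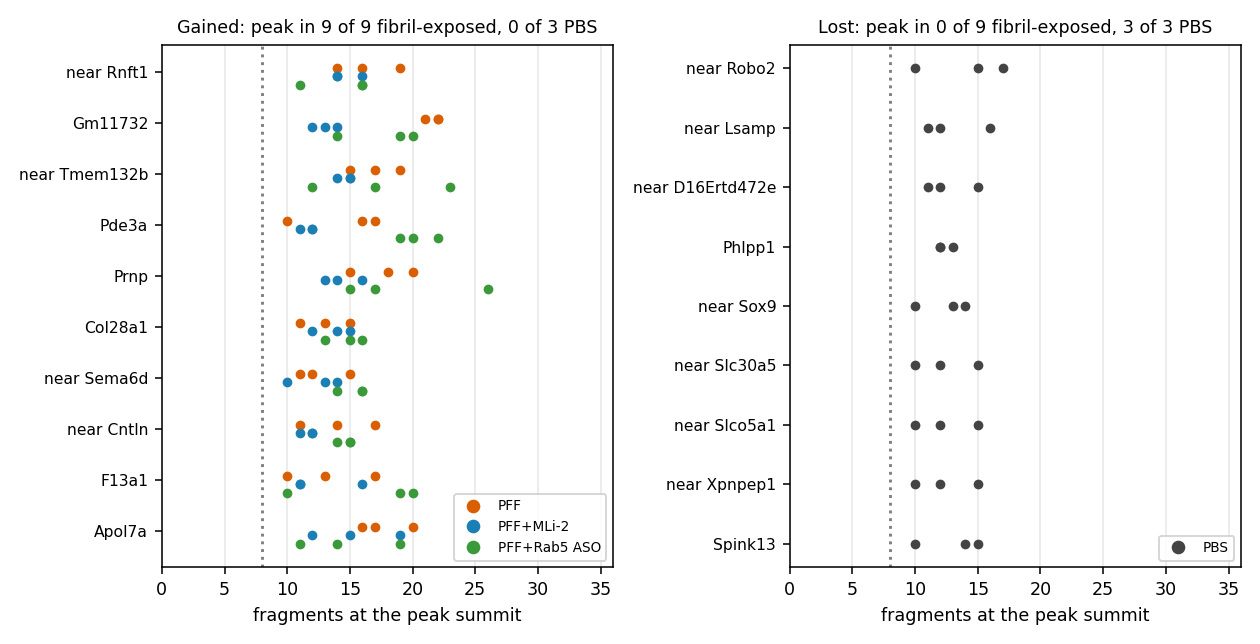
Fragments at the peak summit of the 10 gained (left) and 9 of the 10 lost (right) regions with the highest mean percentile, one point per library that called a peak, coloured by group. The dotted line marks 8 fragments, the weakest peak called in any library, and the leading gained regions span 10 to 26 fragments and the leading lost regions 10 to 17. Libraries without a call have no point.

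Of the 67 lost regions, 10 were at promoters. Besides Phlpp1, they included Shc4, an adaptor of tyrosine kinase receptors (18, 14 and 20 fragments in PBS replicates 1, 2 and 3), Srd5a2, a steroid 5-alpha reductase (11, 12 and 9), Nudt12 (10, 11 and 10), Apcdd1, an inhibitor of Wnt signalling (13, 11 and 11), Lypd1, a modulator of nicotinic receptors (16, 15 and 18), Pcdh9, a protocadherin (21, 23 and 22), and the transcripts 4933408N05Rik in Vat1l (12, 11 and 11) and Gm24145 in Zc3h7a (12, 10 and 10). The Pcdh9 region, chr14:93891364-93891492, held the most fragments of these and yet had percentiles of only 0.592, 3.71 and 2.09, where the fold is taken over a local background and a region common to all 12 libraries lay 84 bp away, whose part in the value was not tested. Lypd1 was similar, with a common region 47 bp away. Of all lost regions 12 (17.9%) lay within 1 kb of a common region, as did 5 of the gained ones (15.6%), against 19.3% of the regions with exactly 3 peaks and 18.1% of those with exactly 9.

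Of the 67 lost regions 21 lay in introns, and 4 are given here as examples, chosen after their values were seen. Rims2, a scaffold of the presynaptic active zone, had chr15:39277598-39277710 with 11, 13 and 9 fragments. Igf1r, the receptor of insulin-like growth factor 1, had chr7:68097150-68097272 with 11 fragments in each PBS library. Npas3, a transcription factor of neurons, had chr12:53677433-53677510 with 12, 9 and 13 fragments. The deubiquitinase gene Usp15 had chr10:123183394-123183502 with 10, 11 and 9 fragments, and this was the one member that held both TGACGTCA and CACGTG within 100 bp of its summit.

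By position, 15.6% of gained regions were at promoters (Wilson 95% interval 6.86 to 31.7%), 34.4% in introns, 3.12% in exons and 46.9% intergenic. Of the lost regions 14.9% (8.31 to 25.3%) were at promoters (5.97% within 500 bp of a start site), 31.3% in introns, 2.99% in exons and 50.7% intergenic. Both promoter shares resembled the 13.3% of regions with a peak in exactly 9 libraries and the 12.4% of regions with exactly 3. Both were below the 29.0% of common regions, but the interval of the gained share covers that value. More than 50 kb from any start site lay 12.5% of gained and 23.9% of lost regions, against 16.2% and 17.8% of the regions with exactly 9 or 3 peaks. The median GC content within 100 bp of the summit was 47.0% in gained and 47.8% in lost regions, against 47.8% and 46.8% in those same classes and 51.7% in common regions.

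The E-box CACGTG stood within 100 bp of the summit at 3 of 32 gained regions (9.38%, 3.24 to 24.2%), in Pde3a, at Apol7a and in Gm13832, the last as the longer GTCACGTG. It stood at 2 of 67 lost regions (2.99%, 0.823 to 10.2%), at 4.41% of common regions and at 3.51% of all regions, so the interval of either list covered the share of all regions. The AP-1 motif TGANTCA stood at 12.5% of gained, 13.4% of lost and 10.8% of all regions. The E-box CAGATG stood at 25%, 22.4% and 22.2%. CAGCTG, another E-box, stood at 0 of 32 gained regions (0 to 10.7%), at 14 of 67 lost regions (20.9%, 12.9 to 32.1%) and at 16.9% of all regions. The partial site TTGGCA of NFI factors stood at 28.1%, 26.9% and 19.5%. Motifs were searched on both strands and some overlap (GTCACGTG contains CACGTG), and a match is not evidence of binding.

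Peak height gave a second reading, over the 72465 regions called in every library, none of which can be a gained or lost region. In each library these regions were ranked by fold, and ranks were mapped to a normal distribution. An effect is a difference of scores, fibril-exposed minus PBS, in standard deviations. With limma on the 12 libraries, 0 regions were higher and 0 lower at a Benjamini-Hochberg adjusted p under 0.05 (0.0% called), and the smallest adjusted p was 0.241. Unadjusted, 4371 regions (6.03%) had p under 0.05, 2501 of them higher and 1870 lower. The median standard error was 0.231 and the median size of an effect 0.167. With a mean for each of the 4 groups and the average of the 3 fibril-exposed means set against PBS, 4 regions were higher and 0 lower. This fit was an alternative, since it leaves the differences between the fibril-exposed groups out of the error.

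The 5 higher regions of lowest p had all 9 fibril-exposed libraries above all 3 PBS libraries, and none passed the test. The first, chr10:117731335-117731519, lay 13423 bp downstream of the start site of Slc35e3, a member of a solute carrier family of nucleotide sugar transporters. Its percentile was 17.9, 40.5 and 41.0 in PBS replicates 1, 2 and 3 and 72.2 to 88.1 (median 79.8) in the fibril-exposed libraries, a gap with no overlap. The effect was 1.61 ± 0.23 (SE, limma adjusted p = 0.241), and against PBS alone it was 1.33 in PFF (limma adjusted p = 0.224), 1.72 in PFF+MLi-2 (0.815) and, with PFF+Rab5 ASO, 1.79 (0.0283). Rora encodes a nuclear receptor that acts in neuron survival, and its intronic region chr9:68755132-68755447 stood at 39.7, 40.5 and 29.9 in PBS and at 65.1 to 94.9 (median 79.7) in the fibril-exposed libraries. There the effect was 1.68 ± 0.28 (SE, limma adjusted p = 0.331), with the PFF+MLi-2 libraries (65.1 to 73.9) below the PFF libraries (77.4 to 91.0).

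The microRNA Mir34c, whose cluster is a known target of p53, gave another of these regions. chr9:51103060-51103263 overlapped the annotated start of Mir34c inside the gene Btg4 and stood at 20.5, 17.9 and 45.4 in PBS and at 58.3 to 80.4 (median 66.1) in the fibril-exposed libraries. The effect was 1.31 ± 0.22 (SE, limma adjusted p = 0.331), and it was 1.64 in PFF, 1.08 in PFF+MLi-2 and, with PFF+Rab5 ASO, 1.22, each against the same PBS libraries. An intergenic region 48125 bp from a start site of Utrn, the dystrophin relative utrophin, chr10:12354529-12354950, stood at 60.4, 29.9 and 41.0 in PBS and at 71.3 to 93.4 (median 79.8) with fibrils, an effect of 1.37 ± 0.23. On the X chromosome, chrX:36393380-36393540 near Gm6268 stood at 58.6, 33.5 and 38.2 in PBS and at 62.8 to 80.6 (median 73.05) with fibrils, an effect of 1.07 ± 0.17. Both had a limma adjusted p of 0.331. In the separate limma comparisons with the same PBS libraries, the Slc35e3, Rora, Utrn and Gm6268 regions passed with PFF+Rab5 ASO (adjusted p = 0.0283, 0.0207, 0.0403 and 0.0444) and not with PFF (0.217 to 0.224) or PFF+MLi-2 (0.815). Mir34c passed with none of them (0.053 with PFF+Rab5 ASO). Of all 72465 regions, 727 (1.0%) passed as higher and 457 (0.631%) as lower with PFF+Rab5 ASO. With PFF and with PFF+MLi-2 limma called 0. At an unadjusted p under 0.05 there were 7044 regions (9.72%) with PFF, 4179 (5.77%) with PFF+MLi-2 and 13527 (18.7%) with PFF+Rab5 ASO. The named regions were chosen by a p that includes the PFF+Rab5 ASO libraries, so their passing there is a description, and a difference between the groups was not tested.

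The sequences of the first, of the Rora window around the summit and of the Mir34c region are given below, with capitals as above. Among the 5 higher regions of lowest p, these had the largest differences in mean percentile between fibril-exposed and PBS libraries.
Slc35e3, chr10:117731335-117731519: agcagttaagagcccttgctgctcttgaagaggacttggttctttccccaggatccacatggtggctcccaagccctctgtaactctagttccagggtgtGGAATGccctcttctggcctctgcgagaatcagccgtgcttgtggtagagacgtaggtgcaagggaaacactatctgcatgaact
Rora, chr9:68755141-68755341: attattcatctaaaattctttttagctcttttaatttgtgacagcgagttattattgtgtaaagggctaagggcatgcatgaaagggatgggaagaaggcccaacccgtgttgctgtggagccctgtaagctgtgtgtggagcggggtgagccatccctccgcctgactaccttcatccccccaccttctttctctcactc
Mir34c, chr9:51103060-51103263: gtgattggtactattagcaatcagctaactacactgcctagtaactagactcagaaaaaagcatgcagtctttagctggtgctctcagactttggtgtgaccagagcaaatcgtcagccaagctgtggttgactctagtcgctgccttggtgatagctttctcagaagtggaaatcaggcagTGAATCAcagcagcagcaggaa

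The 5 lower regions of lowest p all lay in introns. Mapk10 encodes JNK3, the stress kinase of neurons, and chr5:103191698-103191874 stood at 78.8, 62.0 and 78.5 in PBS replicates 1, 2 and 3 and at 39.3 to 54.9 (median 49.8) in the fibril-exposed libraries. Its effect was -0.93 ± 0.16 (SE, limma adjusted p = 0.331), nearly the same in the 3 groups (-0.95 in PFF, -0.90 in PFF+MLi-2 and, with PFF+Rab5 ASO, -0.95). Fhod3, a formin that builds actin filaments, had chr18:24787772-24788004 at 82.4, 79.6 and 80.1 in PBS and at 44.1 to 70.3 with fibrils (effect -1.02 ± 0.21, limma adjusted p = 0.477). Tnrc6b, a partner of Argonaute in microRNA silencing, had chr15:80717502-80717733 at 93.3, 87.7 and 92.6 in PBS and at 65.5 to 84.0 with fibrils (effect -0.95 ± 0.21, limma adjusted p = 0.5).

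The other lower regions were in kinase and secretion genes. Prkce, protein kinase C epsilon, had chr17:86464759-86465198 at 59.2, 54.6 and 64.3 in PBS and at 23.7 to 44.1 with fibrils (effect -0.75 ± 0.17, limma adjusted p = 0.597). Cadps, which also held a gained region, had chr14:12778013-12778280 in another intronic stretch at 90.5, 66.8 and 93.2 in PBS and at 43.4 to 73.9 with fibrils. There the groups overlapped, since PBS replicate 2 lay below 2 PFF+Rab5 ASO libraries, and the effect was -1.22 ± 0.26 (SE, limma adjusted p = 0.486).

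**Figure D3:**
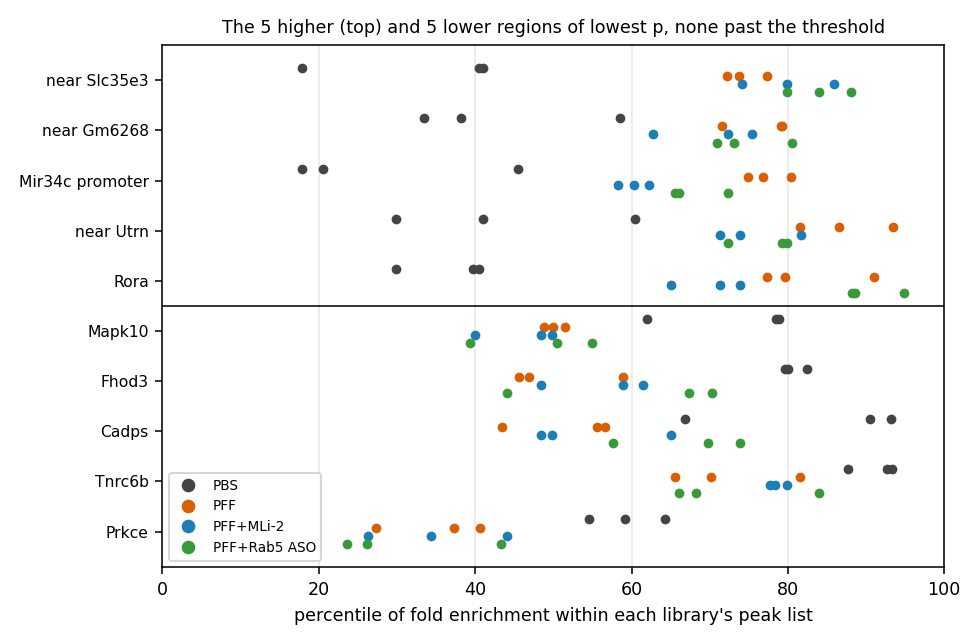
Percentile of fold enrichment within each library's peak list at the 5 higher (above the line) and 5 lower regions of lowest p, one point per library, coloured by group. All 9 fibril-exposed libraries lie above the 3 PBS libraries at the 5 upper regions and below them at 4 of the 5 lower ones, Cadps being the exception, and none of the 10 passed the adjusted threshold.

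The 4 regions called with 4 group means included the Slc35e3 and Rora regions (adjusted p = 0.0471 and 0.0418 in limma). The other 2, chosen after their values were seen, were chr4:98102672-98102914 in an intron of Nfia, a transcription factor of glial and neuronal differentiation, and chr1:106130493-106130808, an intergenic region 40944 bp from a Phlpp1 start site. Nfia stood at 42.5, 12.3 and 13.3 in PBS and at 52.1 to 91.3 in the fibril-exposed libraries, with effects against PBS of 1.34 in PFF, 1.04 in PFF+MLi-2 and, with PFF+Rab5 ASO, 2.33 (limma adjusted p = 0.0251 with group means and 0.477 without). The Phlpp1 region stood at 33.7, 6.27 and 7.62 in PBS, at 33.1 to 71.8 in the PFF and PFF+MLi-2 libraries and at 87.3 to 90.9 in PFF+Rab5 ASO (limma adjusted p = 0.0471 with group means and 0.645 without). Against PBS alone, both regions passed in limma with PFF+Rab5 ASO (adjusted p = 0.0205 for Nfia and 0.0191 for the Phlpp1 region) and with neither of the other groups (0.217 to 0.827). As 1.0% of all regions passed as higher there and these were chosen with those libraries in the fit, this too is a description. The lost region at Phlpp1 lay inside the gene, 644 bp downstream of another of its start sites.

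Without regard to a test, all 9 fibril-exposed libraries ranked above all 3 PBS libraries at 417 of the 72465 regions (0.575%) and below them at 392 (0.541%). Of the 417, 378 had an unadjusted limma p under 0.05, and of the 392, 320 did. The 417 regions were at promoters in 18.5% and in introns in 41.2%, and the 392 in 32.7% and 34.4%, against 29.0% and 35.8% of all regions tested. Their median GC content was 49.2% and 52.7%, against 51.7% over all. Across 4 bins of GC content from lowest to highest, 152, 114, 87 and 64 regions were higher without overlap and 77, 95, 126 and 93 lower, and the median effect of all regions ran from 0.03 to -0.03. Against PBS, the medians over those bins were 0.12, -0.02, -0.09 and -0.03 for the PFF+Rab5 ASO libraries, -0.0068, 0.03, 0.0025 and -0.08 for PFF, and -0.0028, -0.0038, -0.0016 and 0.01 for PFF+MLi-2, so the 3 groups did not share a trend. The part of base composition in the ranks was not tested. Beside the predicted locus Gm20388 (4 lower of 341 regions), Aff3, a gene of a transcription elongation complex, was the single gene with 3 or more such regions, 1 higher and 2 lower of 29.

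At the promoters of the study's lysosomal genes, no region was gained, lost or called. The study named these genes from its RNA-seq of fibril-treated neurons. It later reported more accessibility at P2rx4 and Plekhf1 with PFF against PBS in these libraries. Plekhf1 encodes an endosomal protein that binds phosphoinositides. Its promoter was at 82.7, 75.6 and 83.2 in PBS and at 84.5 to 90.3 (median 87.7) in the fibril-exposed libraries. By the normal scores of common regions, on which regions without overlap were counted above, the groups overlapped. The effect was 0.34 ± 0.15 (SE, limma adjusted p = 0.814). Manba, the lysosomal beta-mannosidase, was at 89.7, 92.9 and 95.2 in PBS and at 91.5 to 98.9 with fibrils (effect 0.38 ± 0.23, limma adjusted p = 0.860). It was high in PFF and PFF+MLi-2, with means of 97.4 and 97.2, and lay at 92.9 in PFF+Rab5 ASO against 92.6 in PBS.

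At the other tested promoters of that list, the mean of the fibril-exposed libraries lay within the PBS range or near it. Single libraries lay further out, as at Arsg (59.95 in PFF+MLi-2 replicate 3) and Hspg2 (85.5 in PFF replicate 2). Arsg, a lysosomal sulfatase, averaged 75.3 in PBS and in the fibril-exposed libraries. Its region also spans the start site of Slc16a6, so the 2 genes cannot be told apart there. Prkcd (66.5 and 66.3), P2rx4 (91.9 and 90.4), Aga (97.7 and 98.0) and Hspg2 (92.5 and 90.3, each PBS first) gave limma adjusted p of 0.929 to 1. Cp, ceruloplasmin, had a promoter peak in 1 of 12 libraries, PFF replicate 2, at 10 fragments. The study picked 4 further genes in part by accessibility in these libraries, so they are no independent evidence of a direction. It reported more open chromatin at all 4 with PFF against PBS, from reads in peaks. The values here pool the 3 fibril-exposed groups and rank peak height, so they are not the same comparison. Tgfb2, a transforming growth factor of the study's senescence genes, stood at 88.1, 82.2 and 69.3 in PBS and at 62.1 to 78.2 (median 72.7) with fibrils. Its effect was -0.42 ± 0.18 (SE, limma adjusted p = 0.808). Ets1, Camk2b and Sema6b had effects of -0.05, -0.03 and -0.14. Each of the 4 genes had 3 to 6 promoter regions, and these values are for the one with the highest mean percentile.

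**Figure D4:**
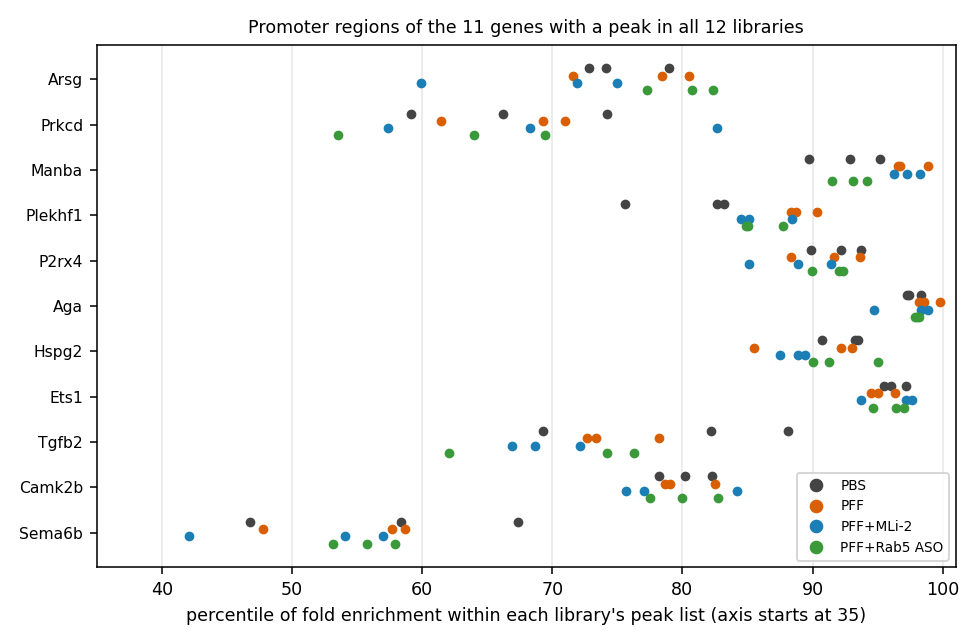
Percentile of fold enrichment at 1 promoter region of each of 11 genes that the study followed, one point per library, coloured by group. The region shown is the gene's promoter region with the highest mean percentile, and the axis starts at 35. Fibril-exposed points overlap PBS points at 10 of the genes. At Plekhf1 they lie above, but the normal scores overlap and the limma adjusted p was 0.814.

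Over the gene lists, no promoter region was gained, lost or called by limma in any direction. Of all 45098 promoter regions 5 were gained and 10 lost, so counts of 0 in lists of 4 to 157 regions say nothing particular about these genes. Of 43 lysosome genes, all had a promoter peak in the 12 libraries, and their 58 tested regions had a median effect of -0.02, against -0.03 over all 21036 promoter regions tested. One of them, Smpd1 (acid sphingomyelinase), had an unadjusted p under 0.05 and was lower, with a mean percentile of 94.4 in PBS and 89.6 with fibrils. The median was -0.05 for 18 regions of MiT/TFE and mTORC1 genes, -0.05 for 31 of autophagy genes, 0.02 for 32 of early endosome, LRRK2 and Rab genes and -0.09 for 33 of senescence and cell cycle genes. It was -0.04 for activity-induced genes, -0.03 for stress response genes, -0.0042 for synapse genes and -0.04 for innate immune genes.

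Among the listed promoters, 1 had ranks without overlap. The promoter of Hspa1a, an inducible heat shock protein, averaged 82.2 in PBS and 63.4 in the fibril-exposed libraries (effect -0.80 ± 0.27, limma adjusted p = 0.719). Near-identical sequence at Hspa1b can share its reads, so the value is uncertain. Over the 10 lists of pathways and processes, the study's lysosomal genes included, 5 regions were higher and 7 lower at an unadjusted p under 0.05, with limma adjusted p of 0.678 to 0.819. These 12 were 3.59% of the 334 listed regions tested, against 3.72% of all 21036 promoter regions tested (383 higher and 399 lower), so the count is near the background. The higher ones were at Gabarapl1 (0.69), an autophagosome protein, Nlgn1 (0.63), a postsynaptic adhesion protein, Dlg4 (0.62), a scaffold of the postsynaptic density, Bdnf (0.53), a neurotrophin, and Plekhf1. The lower ones were at Hspa1a, Smpd1, Tgfb2, Tecpr1 (-0.45), an autophagy protein, Nfkb1 (-0.37), a subunit of NF-kappa-B, and 2 regions of Stx1a (-0.39 and -0.95), a SNARE protein of vesicle release. Over all promoter regions, 77 were higher and 128 lower without overlap.

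The library measures of the fibril-exposed and the PBS libraries overlapped. Fibril-exposed libraries held 160600 ± 13640 peaks (SD, n = 9) and PBS libraries 156900 ± 22160 (SD, n = 3), and an exact permutation test over all 220 choices of 3 libraries gave p = 0.736 (two-sided). Median width was 129 ± 9.46 bp against 131 ± 3.51 bp, relative depth, estimated from the genome-wide background, 1.02 ± 0.184 against 0.939 ± 0.0332, covered length 28.7 ± 2.42 Mb against 28.2 ± 4.39 Mb, and median fold 5.15 ± 0.236 against 5.12 ± 0.0706. Each had an exact permutation adjusted p of 0.873. For peak number and covered length the PBS libraries spread more than the fibril-exposed ones, and for width, depth and fold they spread less. PFF+Rab5 ASO had the narrowest peaks (118 ± 6.00 bp) and the greatest depth (1.22 ± 0.149), PFF the widest (138 ± 2.31 bp) and the least depth (0.843 ± 0.0727), and PFF+MLi-2 the fewest peaks (146500 ± 1315). The part of these differences in the calls was not tested.

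**Figure D5:**
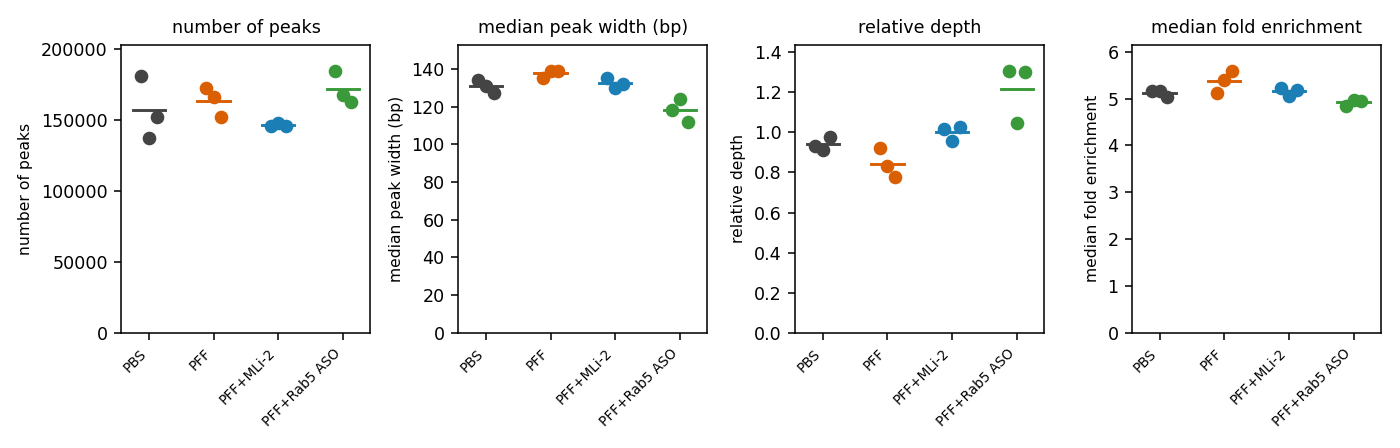
Number of peaks, median peak width, relative depth and median fold enrichment of each library (points) with the group mean (line), on axes that start at 0. PBS libraries lie within the range of the 9 fibril-exposed libraries except for the number of peaks, where PBS replicate 2 is lowest at 137417.

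The labelled cell type was checked at the promoters of marker genes. All 9 markers of cortical excitatory neurons had a promoter peak in all 12 libraries, among them Map2, Neurod6 and Tbr1. So did 6 of 8 astrocyte, 6 of 7 interneuron, 4 of 8 oligodendrocyte lineage, 3 of 6 vascular and all 8 progenitor markers, whose promoters can be open without expression. Of 9 microglia markers none had a promoter peak in all libraries, and Aif1, Cx3cr1, Trem2, Itgam and Spi1 had none in any. No marker promoter was gained, lost or called, and the median effect of the lists ran from -0.13 for interneurons to -0.01 for excitatory neurons.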

How the data were processed

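ATAC-seq was measured in 12 libraries, and the deposited files are 1 narrowPeak list per library with no control library. Per the submitters' processing notes, the authors used Trim Galore 0.6.7, FastQC, Bowtie2 2.5.1 and MACS2 2.2.7.1 on GRCm38, with peaks called on each library alone. The peak caller's options are not given in the sources used here. The authors' columns used were the fold enrichment at the summit (a ratio) and the deposited −log10 p-value and −log10 q-value of each peak. The deposited score column, which the authors' caller derives from these, was not used in the tests. The lists held 137417 to 184717 peaks, 1916151 in all. Of these, 1440 lay off the main chromosomes and were merged and ranked with the rest.

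Fragment counts at summits were solved from the fold and the p-value. For 100% of peaks a whole count gave the deposited −log10 p-value to within 0.01, and the next best count did so for 0% of peaks. The study's own comparison used reads in peaks, which the lists do not hold, so calls were compared by Fisher's exact test and ranks of fold by limma 3.58.1 in R 4.3.3, with Benjamini-Hochberg adjustment. Library measures were compared by an exact permutation test. Python 3.11.15, numpy 2.4.6, pandas 2.3.3, scipy 1.17.1 and statsmodels 0.14.6 were used, and matplotlib 3.10.9 for figures. Positions and genes came from GENCODE annotation of GRCm38. All scripts that test across regions were tested on simulated data. Wilson intervals (95%) reflect counting error alone, and neighbouring regions of a library are not replicates.

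Named regions were the 10 gained and 10 lost with the highest mean percentile, the 5 higher and 5 lower of lowest p (since fewer than 5 passed), and promoters of genes the study followed. For each of these genes, the promoter region with the highest mean percentile was used. Of the lost regions, 2 that are counted in the totals are not reported here by name. The members and gene lists were chosen with earlier results of these data known. Alternatives were another peak threshold, equal list lengths, other region definitions, other rank measures and models, and leaving out each library or fibril-exposed group.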

Additional observations from a re-analysis of the deposited data

Results flagged for a closer look

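Over 38 groups of library values, 2 had a library far from the others, and chance alone marks about 1 in 20 groups. Both are the same library, PFF+MLi-2 replicate 3, among the 9 fibril-exposed libraries. Its Arsg promoter stood at percentile 59.95, with the nearest library at 71.61. Its Aga promoter stood at percentile 94.68, with the nearest at 97.84.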

How the results depend on the processing

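The count of 32 gained regions became 207 with at least 8 of 9 libraries, 88 without the PFF group, 439 without the PFF+MLi-2 group and 114 without the PFF+Rab5 ASO group. The count of 67 lost regions became 273, 244, 305 and 188. Leaving out 1 library gave 36 to 375 gained regions, the highest without PBS replicate 1, and 79 to 730 lost regions, the highest without PBS replicate 2. Dropping a library loosens the rule by construction. Of the gained regions all 32 were kept in each leave-out of 1 library, and of the lost regions 63 to 67. The other region and threshold settings gave 31 to 42 gained and 61 to 82 lost regions, of which 2 to 26 and 34 to 60 were shared with the main list.

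With 4 group means, limma called 4 regions higher (smallest adjusted p = 0.0251), and no other setting called any. With a replicate block it called 0 in either direction (smallest adjusted p = 0.335, with 4189 regions at an unadjusted p under 0.05). Same-numbered libraries correlated at 0.005 to 0.079 in their deviations and differently numbered ones at -0.071 to 0.028. Each library correlated best with one of its own number. The study assigned cultures of a pregnancy to the groups, so shared pregnancies are possible, but the labels do not tie the numbers to pregnancies. The main fit therefore did not use the numbers as pairs. Taking promoters as within 500 bp moved the lost share from 14.9% to 5.97%. Regions higher without overlap numbered 494 to 1413 with 1 library left out, and 1087, 1511 and 1008 without the PFF, PFF+MLi-2 and PFF+Rab5 ASO groups. Those lower numbered 451 to 1803, and 1067, 1912 and 928. At the 12 named rank regions, 247 of 251 alternatives kept direction and call and 4 passed the threshold, with 0 reversed. The cause of these differences was not tested.

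Library differences (fibril-exposed minus PBS) turned sign in some settings. Without the PFF+Rab5 ASO group the peak number was -1825, the width 4.33 bp and the relative depth -0.0181. Without the PFF group the covered length was -0.547 Mb and the median fold -0.081. With 1 library left out, the difference ran from -5962 to 15820 in peaks, from -1.25 to 2.93 Mb in covered length, from -3.17 to 0.833 bp in width and from -0.0247 to 0.0700 in median fold. Within these, covered length was -0.327 Mb without PBS replicate 3, width was 0.333 bp without PBS replicate 1 and 0.0833 bp without PFF+Rab5 ASO replicate 1, and median fold was -0.00978 without PBS replicate 3.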
